A study of Mus musculus with 12 samples.

Results

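The 10 genes described here carry the response of a cell to bound antibody: the Fc gamma receptors Fcgr1, Fcgr2b, Fcgr3 and Fcgr4, their signalling subunit Fcer1g, the downstream genes Syk, Plcg2 and Inpp5d, and the intracellular IgG-binding genes Fcgrt and Trim21. They were chosen by name for their role in antibody handling, and 9 of the 10 have a row in the deposited table of 14881 genes. Fcgr4 is not analysed here beyond its annotation.

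RNA was sequenced from the hippocampus of 12 male APPswe mice, a strain with a mutant human amyloid precursor protein transgene, at 22 to 26 months of age. All mice carried the transgene, so no group shows these genes without amyloid pathology. Each mouse had received 5 µL of an adeno-associated virus of serotype 1 into the cisterna magna, in which the broadly active CMV promoter drove either enhanced green fluorescent protein (AAV1-CMV-eGFP) or mouse vascular endothelial growth factor C (AAV1-CMV-mVEGF-C). Antibody was injected into the peritoneum every week at 40 mg/kg and was either a control mouse IgG (mIgG) or mAducanumab (mAdu), which binds aggregated amyloid beta. Each of the 4 groups had 3 mice, with 1 hippocampus and 1 library per mouse. Mice 1 to 3 formed the double control eGFP+mIgG, mice 4 to 6 the antibody group eGFP+mAdu, mice 7 to 9 the growth factor group mVEGF-C+mIgG, and mice 10 to 12 received both, as mVEGF-C+mAdu. Both antibody arms received IgG, so no group shows the receptors without an injected antibody.

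Fc gamma receptors bind the constant part of IgG that coats a target. In mice Fcgr1, Fcgr3 and Fcgr4 are activating receptors that pair with the common gamma chain Fcer1g, whose tyrosine motif (ITAM) recruits the kinase Syk and, further on, the phospholipase Plcg2. Fcgr2b is the inhibitory receptor of the family, and its ITIM motif recruits the lipid phosphatase SHIP1, encoded by Inpp5d. In the brain these genes are expressed mainly by microglia and by macrophages at its borders, where they serve uptake of antibody-coated amyloid. Fcgrt encodes the heavy chain of the neonatal Fc receptor, which pairs with beta-2 microglobulin and recycles IgG in endothelium and other cells, and Trim21 encodes a cytosolic ubiquitin ligase that binds the Fc part of antibodies.

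The libraries held 23213612 to 29295266 counted reads. Levels are given as CPM, the read count of a gene relative to its library total after scaling by the trimmed mean of M values (TMM). The sample source label names the meninges and the series description the hippocampus: the 14 hippocampal neuron markers had a median of 55.2 to 75.0 CPM over the libraries, and the 16 markers of meningeal fibroblasts one of 3.70 to 7.59 CPM. In each group 1 library lay between the other two for most genes that varied. Among genes whose variance within the group exceeded 10 times their mean count, mice 3, 6, 9 and 12 held the middle value in 67.4%, 85.1%, 83.9% and 87.2% of genes, where an equal share is 33.3%. For the 9 measured members the same mice held the middle value in 4, 7, 5 and 4 genes. If these 4 libraries share material with others of their group, the p-values are too small, and results are given below with and without them.

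Per kilobase of exon, which allows genes to be compared, Fcgr3 had the highest level at 8.73 ± 1.01 CPM per kb (SD, n = 12), followed by Fcer1g at 7.88 ± 1.33 and Fcgrt at 6.36 ± 0.728. Inpp5d at 1.77 ± 0.155, Plcg2 at 1.69 ± 0.179 and Fcgr1 at 1.46 ± 0.324 CPM per kb formed a middle range. Trim21 at 0.793 ± 0.0871, Fcgr2b at 0.478 ± 0.0921 and Syk at 0.450 ± 0.0548 CPM per kb were the lowest. The activating receptor Fcgr3 and its gamma chain thus stood well above the inhibitory Fcgr2b in every library. The steps from Fcgrt to Inpp5d, from Fcgr1 to Trim21 and from Trim21 to Fcgr2b were seen in 12 of 12 libraries. Fcgr3 exceeded Fcer1g in 10 of 12 libraries, Fcer1g exceeded Fcgrt in 9, Inpp5d exceeded Plcg2 in 8, Plcg2 exceeded Fcgr1 in 10 and Fcgr2b exceeded Syk in 8, so these neighbours were not separated beyond their spread. Exon length was taken over all annotated transcripts of a gene, so a gene with unused long exons is placed too low in this order.

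**Figure D1:**
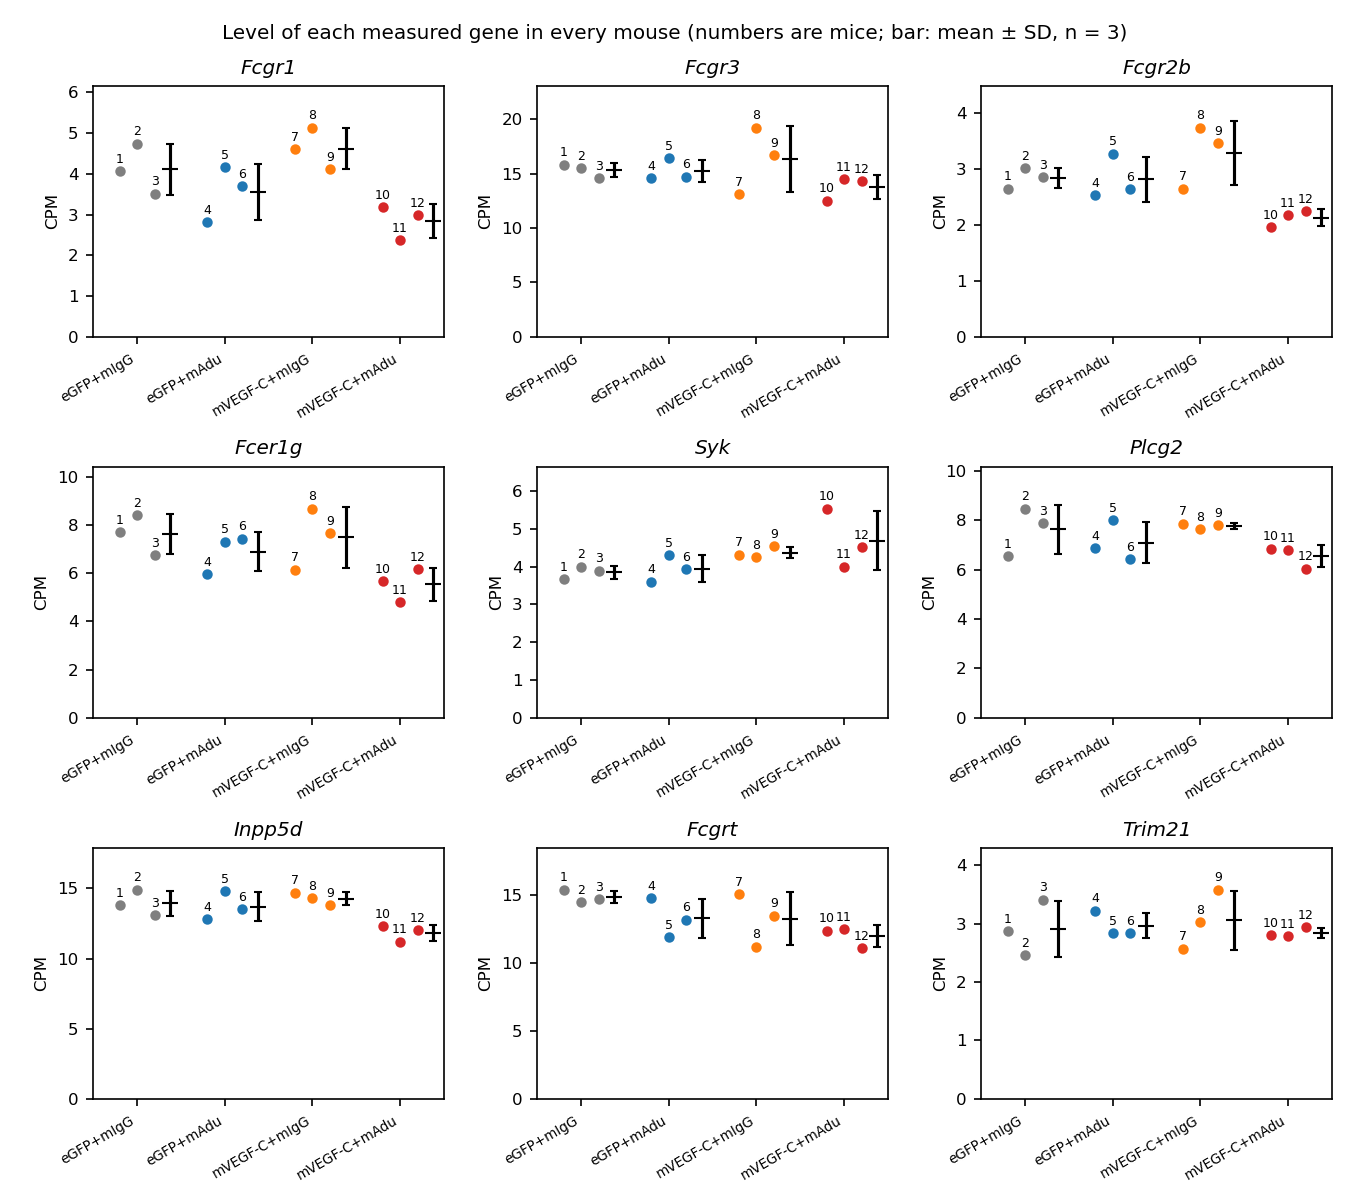
Level of each of the 9 measured genes in CPM (vertical axes, each from 0) in every mouse (numbered points), by group, with the group mean ± SD (n = 3) as a bar beside the points. Fcgr1, Fcgr2b, Plcg2 and Inpp5d are lower in all 3 mVEGF-C+mAdu mice (10 to 12) than in all 3 mVEGF-C+mIgG mice (7 to 9).

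The clearest pattern across the groups lay in the receptors and concerned the mice given both mVEGF-C and mAdu. Fcgr1, the high-affinity activating receptor (ENSMUSG00000015947, mm10 chr3:96282909-96293969, minus strand), stood at 4.07, 4.74 and 3.51 CPM in the eGFP+mIgG mice and at 2.81, 4.16 and 3.69 CPM in the eGFP+mAdu mice. It stood at 4.60, 5.13 and 4.12 CPM with mVEGF-C+mIgG and at 3.19, 2.38 and 2.98 CPM with mVEGF-C+mAdu. All 3 mice with both treatments lay below every mIgG mouse of either vector, while the eGFP+mAdu mice overlapped with all other groups. The group means were 4.11 ± 0.617, 3.55 ± 0.689, 4.62 ± 0.506 and 2.85 ± 0.417 CPM (SD, n = 3) in the same order.

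Fcgr2b, the inhibitory receptor (ENSMUSG00000026656, mm10 chr1:170958617-170976547, minus strand), showed the same arrangement of groups at a lower level. Its values were 2.65, 3.02 and 2.86 CPM with eGFP+mIgG, 2.53, 3.28 and 2.64 CPM with eGFP+mAdu, and 2.65, 3.74 and 3.47 CPM with mVEGF-C+mIgG. With mVEGF-C+mAdu it was at 1.96, 2.18 and 2.25 CPM, below each of the other 9 mice. These levels rest on 51 to 94 reads per library. The annotated gene Gm38204 runs antisense over 2.68% of the exon bases of Fcgr2b, and without knowledge of the strand setting reads from it cannot be told apart from those of Fcgr2b.

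Fcgr3, the low-affinity activating receptor and the most abundant of those measured (ENSMUSG00000059498, mm10 chr1:171051174-171064935, minus strand), varied less. It stood at 15.8, 15.5 and 14.6 CPM with eGFP+mIgG, at 14.6, 16.4 and 14.7 CPM with eGFP+mAdu, at 13.1, 19.2 and 16.7 CPM with mVEGF-C+mIgG, and at 12.5, 14.5 and 14.3 CPM with mVEGF-C+mAdu. Mouse 7 had a value among those of the doubly treated mice, and mouse 8 had the highest of all libraries. Fcgr2b and Fcgr3 are neighbours on chromosome 1 with similar extracellular parts: 166 stretches of 50 bases occur in transcripts of both, which is 2.92% of those of Fcgr2b and 9.58% of those of Fcgr3. Reads from these stretches could be credited to either gene or dropped, depending on counting settings not given in the sources used here. Fcgr1 shares no such stretch with the other receptors.

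Fcer1g, the gamma chain through which the activating receptors signal (ENSMUSG00000058715, mm10 chr1:171229572-171234365, minus strand), was at 7.70, 8.41 and 6.75 CPM with eGFP+mIgG and at 5.96, 7.30 and 7.43 CPM with eGFP+mAdu. It was at 6.15, 8.67 and 7.66 CPM with mVEGF-C+mIgG and at 5.68, 4.81 and 6.16 CPM with mVEGF-C+mAdu. Mouse 7, given mVEGF-C and mIgG, lay at the level of mouse 12, so these groups touched, while the doubly treated mice lay below all 3 eGFP+mIgG mice.

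The promoter sequence of the members was also searched, whether or not they varied with the receptors. RefSeq windows of GRCm38.p6, from 250 bases before to 50 after an annotated start, were matched by symbol for all 10 members, in 12 windows. They were searched on both strands for the gamma-activated site TTCNNNGAA, the interferon-stimulated response element core (GAAA, any 2 bases, GAAA) and the core of the myeloid factor PU.1, GAGGAAG, which occur in 8.3%, 3.44% and 13.6% of all 32851 such windows. These motifs do not overlap each other in the members, except for the overlapping pair of response element cores in Trim21. A match was found for 5 members, printed here in the direction of the gene with the matches in capitals. CTTCCTC is the PU.1 core read on the other strand.
Fcgr1 (chr3:96294010-96294089, minus strand, 120 to 41 bases before the start): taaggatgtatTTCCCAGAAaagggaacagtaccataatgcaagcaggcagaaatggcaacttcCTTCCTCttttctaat
Fcgr3 (chr1:171059395-171059454, minus strand, the last 60 bases before the more downstream of its starts): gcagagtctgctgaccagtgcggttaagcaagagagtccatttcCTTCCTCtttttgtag
Fcgr4 (chr1:171018836-171018915, plus strand, 90 to 11 bases before the start): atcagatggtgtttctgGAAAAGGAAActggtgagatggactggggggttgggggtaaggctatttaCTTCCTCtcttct
Inpp5d (chr1:87620252-87620311, plus strand, the last 60 bases before the start): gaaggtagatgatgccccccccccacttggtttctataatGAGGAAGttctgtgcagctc
Trim21 (chr7:102565450-102565473, minus strand, bases 10 to 33 after the start): agagGAAACTGAAAGTGAAAtttg
Fcgr1 held the gamma-activated site and a PU.1 core, Fcgr3 and Inpp5d held a PU.1 core, Fcgr4 held a response element core and a PU.1 core, and Trim21 held the response element core at overlapping positions. The windows of Fcgr2b, Fcer1g, Syk, Plcg2 and Fcgrt held none of these letters. Such matches describe the sequence and not binding of a factor. The response element core occurred only in Trim21 and in Fcgr4, which has no level here. A link between these matches and the levels of the genes was not tested.

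Downstream of the receptors the genes did not move as a block. Syk, the kinase recruited to the gamma chain (ENSMUSG00000021457, mm10 chr13:52583173-52648792, plus strand), was at 3.67, 4.00 and 3.89 CPM with eGFP+mIgG, at 3.60, 4.31 and 3.94 CPM with eGFP+mAdu, at 4.32, 4.25 and 4.54 CPM with mVEGF-C+mIgG and at 5.53, 4.00 and 4.51 CPM with mVEGF-C+mAdu. Its mean was highest, not lowest, in the doubly treated mice, at 4.68 ± 0.779 CPM against 3.85 ± 0.168 CPM with eGFP+mIgG (SD, n = 3), with mouse 10 above all others and mouse 11 at the level of mouse 2. Plcg2, the phospholipase (ENSMUSG00000034330, mm10 chr8:117498291-117635142, plus strand), was at 6.54, 8.46 and 7.88 CPM with eGFP+mIgG, at 6.86, 8.00 and 6.41 CPM with eGFP+mAdu, at 7.86, 7.63 and 7.81 CPM with mVEGF-C+mIgG and at 6.84, 6.79 and 6.04 CPM with mVEGF-C+mAdu. The last group lay below the mVEGF-C+mIgG mice and overlapped with both eGFP groups.

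Inpp5d, whose product SHIP1 acts on the inhibitory side (ENSMUSG00000026288, mm10 chr1:87620312-87720507, plus strand), followed the receptors with little spread. It was at 13.8, 14.9 and 13.1 CPM with eGFP+mIgG, at 12.8, 14.8 and 13.5 CPM with eGFP+mAdu, at 14.7, 14.3 and 13.8 CPM with mVEGF-C+mIgG and at 12.3, 11.2 and 12.0 CPM with mVEGF-C+mAdu. All 3 doubly treated mice were below the other 9.

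The IgG-binding genes outside the receptor pathway showed other patterns. Fcgrt, the neonatal Fc receptor heavy chain (ENSMUSG00000003420, mm10 chr7:45092990-45103851, minus strand), was at 15.4, 14.5 and 14.7 CPM with eGFP+mIgG, at 14.8, 11.9 and 13.2 CPM with eGFP+mAdu, at 15.1, 11.2 and 13.5 CPM with mVEGF-C+mIgG and at 12.4, 12.5 and 11.1 CPM with mVEGF-C+mAdu. Both singly treated groups lay between the double control and the double treatment in their means and overlapped with both. Trim21 (ENSMUSG00000030966, mm10 chr7:102557921-102565486, minus strand) had means of 2.91 ± 0.473, 2.97 ± 0.221, 3.06 ± 0.509 and 2.84 ± 0.0821 CPM (SD, n = 3) from the double control to the double treatment, and all groups overlapped.

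The first comparison asked whether mAdu changed these transcripts when the control vector had been given. With eGFP, 0 of 9 members passed a Benjamini-Hochberg adjusted p of 0.05 in edgeR's quasi-likelihood test, where 5 of 14881 genes (0.0336%) passed, and 0 of 9 had an unadjusted p under 0.05, a mark that 9.21% of all genes reached. The member closest to a difference was Fcgrt, with a log2 change of -0.16 (SE 0.099, 95% interval -0.37 to 0.05, adjusted p = 0.657). Fcgr1 followed with -0.20 (SE 0.164, interval -0.55 to 0.15, adjusted p = 0.748). The inhibitory Fcgr2b had a log2 change of -0.01 with an interval from -0.34 to 0.32, and Fcgr3 one of -0.01 with an interval from -0.23 to 0.22. The median over the 9 members was -0.02, and over all genes -0.00. These intervals do not show that the antibody left the genes unaffected: they allow changes of the size given by their bounds.

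The same comparison under mVEGF-C gave the lower receptor levels described above, none of which passed the threshold over all genes. Here 8 of 9 members had a negative log2 change, as 49.5% of all genes did, and the median was -0.25 beside 0.00 over all genes. An unadjusted p under 0.05 with a lower level was reached by 6 members, Fcgr1, Fcgr2b, Inpp5d, Fcer1g, Fcgr3 and Plcg2, where 6.69% of all genes reached it. The adjusted threshold was passed by 0 of 9 members and 31 genes (0.208%). The mAdu mice lay wholly below the mIgG mice for 4 members, Fcgr1, Fcgr2b, Plcg2 and Inpp5d, as they did for 8.12% of all genes.

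Fcgr1 had the largest difference among the members in this comparison, with a log2 change of -0.69 (SE 0.168, 95% interval -1.05 to -0.33, adjusted p = 0.104). Fcgr2b followed at -0.63 (SE 0.161, interval -0.97 to -0.28, adjusted p = 0.117). The high-affinity activating receptor and the inhibitory receptor thus stood at 0.619 and 0.648 of their level with mIgG. Fcer1g was at -0.43 (SE 0.141, interval -0.73 to -0.13, adjusted p = 0.206) and Fcgr3 at -0.25 (SE 0.109, interval -0.48 to -0.02, adjusted p = 0.356). For the downstream genes the log2 change was -0.26 in Inpp5d (SE 0.077, interval -0.43 to -0.10, adjusted p = 0.158) and -0.24 in Plcg2 (SE 0.112, interval -0.48 to -0.01, adjusted p = 0.374). Fcgrt, Trim21 and Syk had log2 changes of -0.15, -0.11 and 0.10, with adjusted p of 0.610, 0.833 and 0.806 in the same test.

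**Figure D2:**
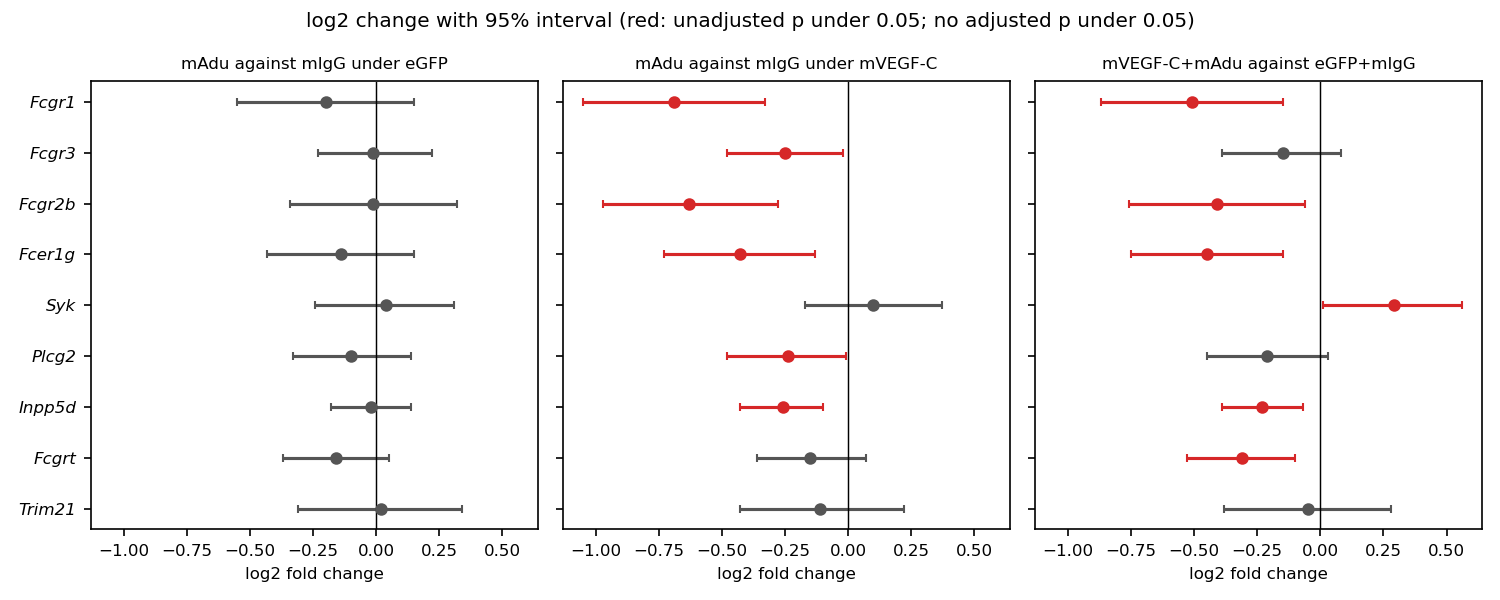
log2 fold change (horizontal axes) of the 9 measured genes with 95% intervals in 3 comparisons, from the fit of all 12 libraries; red marks an unadjusted p under 0.05. Under eGFP all 9 intervals include 0, under mVEGF-C the intervals of 6 genes lie below 0, and no adjusted p is under 0.05; the comparisons share control groups.

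Whether the antibody difference itself depended on the vector was tested as an interaction. Of the members, 0 of 9 passed the adjusted threshold, as 2 of all genes (0.0134%) did, and 2 of 9 had an unadjusted p under 0.05, beside 6.82% of all genes. For Fcgr2b the difference between the vectors was -0.62 on the log2 scale (SE 0.224, interval -1.09 to -0.14, adjusted p = 0.673), and for Inpp5d it was -0.24 (SE 0.107, interval -0.47 to -0.01, adjusted p = 0.716). For Fcgr1 it was -0.49 with an interval from -0.99 to 0.01. A larger antibody difference under mVEGF-C than under eGFP is thus not shown for any member at the threshold used.

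Averaged over the vectors, the antibody comparison used all 12 mice. Fcgr1 had the largest member difference at -0.45 (SE 0.117, adjusted p = 0.0886 in edgeR's quasi-likelihood test). The others with an unadjusted p under 0.05 were Fcgr2b at -0.32 (SE 0.112, adjusted p = 0.183), Fcer1g at -0.29 (SE 0.098, adjusted p = 0.172), Plcg2 at -0.17 (SE 0.078, adjusted p = 0.307), Fcgrt at -0.15 (SE 0.072, adjusted p = 0.322) and Inpp5d at -0.14 (SE 0.054, adjusted p = 0.211). All 6 were lower with mAdu, beside 8.18% of all genes, and 0 of 9 passed the adjusted threshold, which 85 genes (0.571%) passed.

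The vector alone was compared in the mIgG mice. There 0 of 9 members passed the adjusted threshold, which 6 genes (0.0403%) passed, and 0 of 9 had an unadjusted p under 0.05, a mark that 7.91% of all genes reached. The smallest p among members belonged to Fcgrt at -0.17 (SE 0.100, interval -0.38 to 0.05, adjusted p = 0.703) and Syk at 0.18 (SE 0.130, interval -0.09 to 0.46, adjusted p = 0.744). The 3 mVEGF-C mice lay above the 3 eGFP mice for Syk, a separation seen in 6.38% of all genes. The receptors had positive or near-zero changes in this comparison, of 0.18 in Fcgr1, 0.21 in Fcgr2b, 0.10 in Fcgr3 and -0.02 in Fcer1g. In the mAdu mice the vector comparison again gave lower values: Inpp5d was at -0.21 (SE 0.076, adjusted p = 0.233), Fcgr2b at -0.40 (SE 0.163, adjusted p = 0.275) and Fcer1g at -0.31 (SE 0.141, adjusted p = 0.338). These were the 3 members with an unadjusted p under 0.05, a mark that 6.81% of all genes reached on the lower side, and 0 of 9 passed the adjusted threshold, beside 7 genes (0.0470%). Fcgr3, Fcgr2b and Inpp5d were separated between the groups, as 10.2% of genes were on the lower side.

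Both treatments against neither gave the largest number of genes past the threshold among the comparisons made, which share groups and are not independent of each other. The adjusted threshold was passed by 324 genes (2.18%) and by 0 of 9 members. Lower levels with an unadjusted p under 0.05 were seen for Fcer1g at -0.45 (SE 0.140, adjusted p = 0.0931), Fcgrt at -0.31 (SE 0.101, adjusted p = 0.103), Fcgr1 at -0.51 (SE 0.171, adjusted p = 0.111), Inpp5d at -0.23 (SE 0.077, adjusted p = 0.113) and Fcgr2b at -0.41 (SE 0.164, adjusted p = 0.173). This is 5 of 9 members, beside 10.0% of all genes on the lower side. Syk was at 0.29 (SE 0.129, adjusted p = 0.226) and was the 1 member with a higher level at that mark, beside 10.3% of all genes. The groups were separated for 6 members on the lower side and for Syk on the higher side, beside 13.4% and 13.9% of all genes. For Syk the separation was marginal, with mouse 11 and mouse 2 both at 4.00 CPM. Fcgrt depended here on the model: fitted with these 2 groups alone, its log2 change of -0.31 had an adjusted p of 0.0362 in edgeR's quasi-likelihood test, within a range of 0.0109 to 0.641 over all settings tried.

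The antibody comparison under mVEGF-C was then recomputed under other settings. Leaving out 1 mouse at a time kept all 6 log2 changes negative, from -0.78 to -0.58 for Fcgr1, from -0.76 to -0.52 for Fcgr2b, from -0.55 to -0.32 for Fcer1g, from -0.38 to -0.12 for Fcgr3, from -0.28 to -0.19 for Plcg2 and from -0.29 to -0.23 for Inpp5d. Mice 7 and 8 of the mVEGF-C+mIgG group held the lowest and the highest value of Fcgr2b, Fcgr3 and Fcer1g in that group: without mouse 7 Fcgr2b passed, at -0.76 with an adjusted p of 0.0343 in edgeR's quasi-likelihood test, and Fcgr3 was at -0.38 without mouse 7 and at -0.12 without mouse 8. Without the 4 intermediate libraries the changes were -0.80 in Fcgr1, -0.63 in Fcgr2b, -0.50 in Fcer1g, -0.26 in Fcgr3, -0.30 in Inpp5d and -0.19 in Plcg2, each with an adjusted p of 0.997 at 2 mice per group. The 6 log2 changes kept their sign without those libraries. They had been chosen for a small p in this comparison, and dropping middle values moves a mean little. The kept sign is thus no check on the p-values. With fewer mice the number of genes that passed went from 31 to 0, with 683 genes at an unadjusted p under 0.05. Over all settings the adjusted p ran from 0.0509 to 0.997 for Fcgr1, lowest in the DESeq2 Wald test, and from 0.0343 to 0.997 for Fcgr2b.

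The other comparisons were likewise repeated without the 4 intermediate libraries, and 0 of 9 members passed in any of them. For both treatments against neither the log2 changes were -0.65 in Fcgr1, -0.61 in Fcer1g, -0.45 in Fcgr2b, -0.28 in Inpp5d, -0.27 in Fcgrt and 0.32 in Syk, with adjusted p from 0.560 to 0.653 in edgeR's quasi-likelihood test. Averaged over the vectors they were -0.57 in Fcgr1, -0.39 in Fcer1g, -0.29 in Fcgr2b, -0.18 in Inpp5d, -0.12 in Fcgrt and -0.09 in Plcg2, with adjusted p from 0.835 to 0.916. The interaction was -0.67 in Fcgr2b and -0.25 in Inpp5d, and the vector comparison under mAdu gave -0.49 in Fcgr2b, -0.34 in Fcer1g and -0.23 in Inpp5d, with adjusted p of 1.00 and 0.876. Under mIgG the vector comparison gave -0.18 in Fcgrt and 0.17 in Syk, and mAdu under eGFP gave -0.33 in Fcgr1 and -0.16 in Fcgrt, each with an adjusted p of 1.00. Each of these values kept its sign, which is likewise no check on the p-values. Of them 2 moved by more than 1.5 times, from -0.17 for Plcg2 in the averaged comparison and from -0.20 for Fcgr1 under eGFP.

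**Figure D3:**
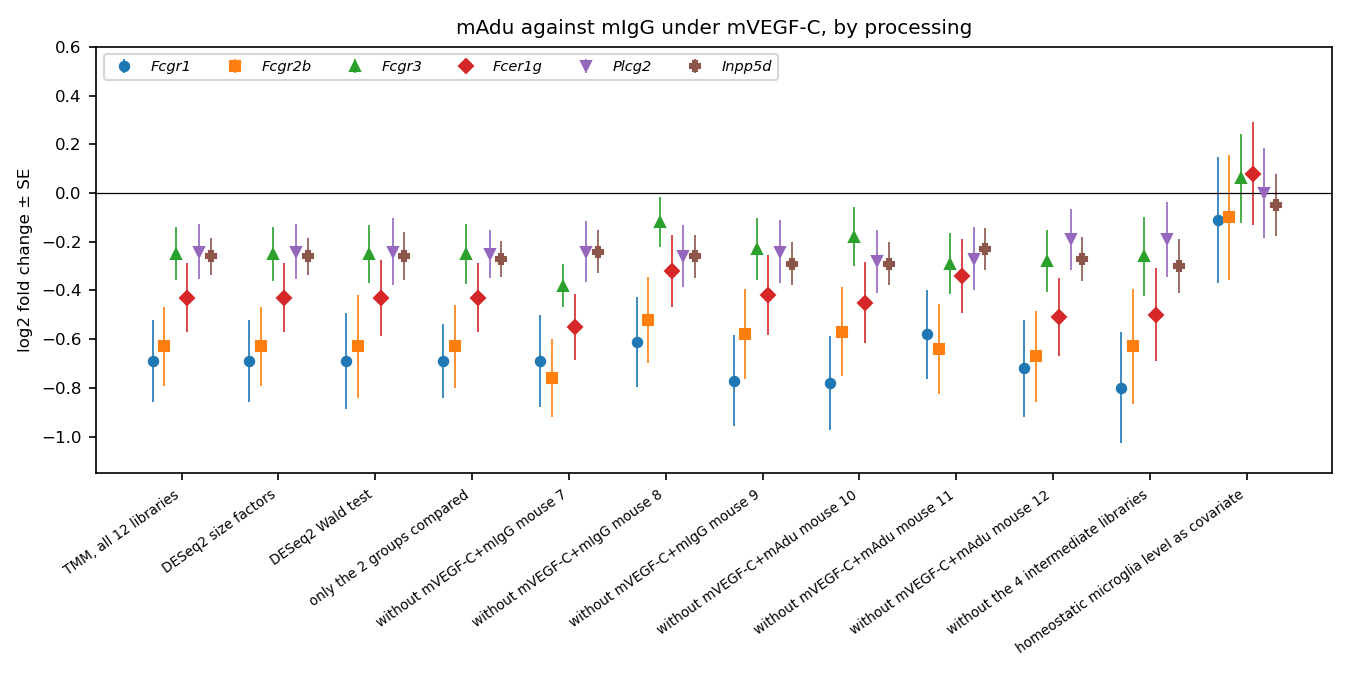
log2 fold change ± SE (vertical axis) of 6 genes for mAdu against mIgG under mVEGF-C, in the fit of all 12 libraries and in 11 other settings (horizontal axis). The values keep their sign when single mice or the 4 intermediate libraries are left out and lie between -0.11 and 0.08 once the level of homeostatic microglia genes is a covariate.

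The receptors are microglial genes, and in whole hippocampus fewer microglia and less RNA per microglial cell cannot be told apart. The level of 16 homeostatic microglia markers (the mean over genes of log2 CPM, centred on the 12 mice) ran from -0.143 to -0.098 in the doubly treated mice and from 0.034 to 0.110 in the mVEGF-C+mIgG mice. Its summed level was 512 to 530 CPM and 566 to 603 CPM in these groups, 532 to 567 CPM with eGFP+mIgG and 537 to 616 CPM with eGFP+mAdu, and no marker was at 0 in any library. With this level as a covariate, the log2 changes for mAdu under mVEGF-C became -0.11 in Fcgr1, -0.10 in Fcgr2b, 0.06 in Fcgr3, 0.08 in Fcer1g, -0.05 in Inpp5d and -0.00 in Plcg2. Because the marker level did not overlap between the groups compared, a difference of the treatments and one of the marker level cannot be told apart in that fit. The receptor level, the same mean over Fcgr1, Fcgr2b, Fcgr3 and Fcer1g, ran from -0.368 to -0.195 in the doubly treated mice, from -0.018 to 0.401 with mVEGF-C+mIgG, from -0.181 to 0.162 with eGFP+mAdu and from -0.015 to 0.212 with eGFP+mIgG. After subtraction of the homeostatic level it was -0.165 ± 0.0644 in the doubly treated mice, 0.113 ± 0.176 with mVEGF-C+mIgG, -0.0527 ± 0.0878 with eGFP+mAdu and 0.104 ± 0.0691 with eGFP+mIgG (SD, n = 3). The receptors were thus lower than the homeostatic markers in all 3 doubly treated mice, from -0.225 to -0.0970, and overlapped there with the eGFP+mAdu mice.

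**Figure D4:**
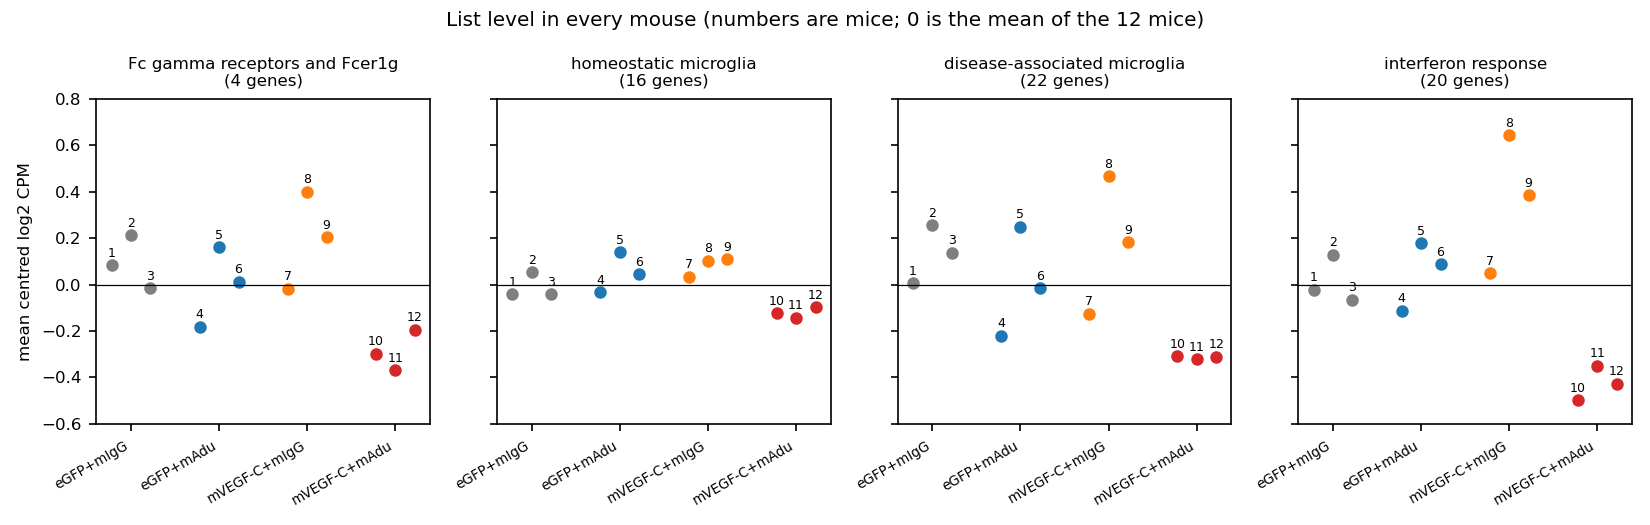
Level of 4 gene lists in every mouse (numbered points), as the mean over genes of log2 CPM centred on the 12 mice (vertical axis), by group. Mice 10 to 12 are lowest in each list, and mouse 8 is highest for the receptors, the disease-associated genes and the interferon genes.

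Lists for other microglial states were also lowest in the doubly treated mice. The 22 measured genes of disease-associated microglia had a level of -0.322 to -0.308 in the doubly treated mice and -0.125 to 0.467 with mVEGF-C+mIgG. For mAdu under mVEGF-C 20 of them were lower, beside 49.5% of all genes, with a median of -0.30, and 0 passed. The 20 measured interferon-response genes had a level of -0.497 to -0.349 against 0.048 to 0.643 in the same groups, and a median change of -0.78. Of these, 6 passed on the lower side, among them Ifit3 at -1.11 and Irf7 at -1.32. Of the homeostatic list 1 gene, Olfml3, passed at -0.37. Under eGFP the medians of the homeostatic, disease-associated and interferon lists were 0.04, -0.05 and 0.02, and none of their genes passed. The part of these states in the receptor levels was not tested.

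Markers of other cells that carry Fc receptors or make antibody were thin in this table. A row was present for 2 of 12 B and plasma cell markers, 1 of 13 T and NK cell markers, 1 of 8 mast cell markers, 3 of 10 neutrophil markers, 3 of 10 monocyte and dendritic cell markers and 4 of 9 markers of border-associated macrophages. The border macrophage level ran from -0.399 to -0.202 with mVEGF-C+mIgG and from -0.201 to -0.104 with both treatments, so it was not lower in the doubly treated mice of this pair. With eGFP+mIgG it ran from 0.335 to 0.517, above the doubly treated mice, as the receptors did, and its part in the receptor values was not tested. Counts of negative markers are to be read against all 14881 genes, of which 7602 were negative for both treatments against neither. For mVEGF-C under mAdu 7385 were negative, and for mAdu 7372 under mVEGF-C and 7560 under eGFP. All 4 measured border macrophage markers were negative for both treatments against neither. Of these 1 passed, Stab1 at -0.39 (adjusted p = 0.0380 in edgeR's quasi-likelihood test). For the 14 endothelial markers, the cells in which Fcgrt is known to act, the level was between -0.124 and 0.107 in the doubly treated mice. In the eGFP+mIgG mice it was between -0.016 and 0.036. For both treatments against neither 7 of the 14 were positive and 7 negative, and 2 passed in edgeR's quasi-likelihood test. These were Vwf at -0.71 (adjusted p = 0.00343) and Slco1c1 at 0.32 (adjusted p = 0.0300). For mAdu under eGFP 8 of the 14 were negative and 1 passed in that test, Vwf at -0.75 (adjusted p = 0.00257). The 9 measured choroid plexus markers were lower in the doubly treated mice, from -0.733 to -0.203, than in both mIgG groups. These ran from 0.116 to 0.143 with eGFP+mIgG and from -0.138 to 0.102 with mVEGF-C+mIgG. For both treatments against neither 8 of the 9 were negative and 1 passed, Ttr at -1.62 (adjusted p = 0.00895 in edgeR's quasi-likelihood test). For mVEGF-C under mAdu 7 were negative and only Ttr passed, at -1.76 (adjusted p = 0.0176 in the same test). For mAdu under mVEGF-C all 9 were negative and 0 passed. The 16 markers of meningeal and perivascular fibroblasts ran from -0.270 to -0.113 in the doubly treated mice, from 0.108 to 0.199 with eGFP+mIgG, from -0.199 to -0.073 with mVEGF-C+mIgG and from -0.360 to 0.629 with eGFP+mAdu. Their summed level was 191 to 202, 215 to 246, 165 to 224 and 215 to 285 CPM in the same order. For both treatments against neither 15 of the 16 were negative with a median of -0.37 and 6 had an unadjusted p under 0.05. All 6 were lower, as 10.0% of all genes were at that mark. For mVEGF-C against eGFP under mAdu all 16 were negative and 10 had an unadjusted p under 0.05, while for mAdu under mVEGF-C 12 were negative and 1 had. Of all genes 6.81% and 6.69% were lower at that mark in these comparisons. None of the 16 fibroblast markers passed in these comparisons. The part of endothelium, choroid plexus or meningeal tissue in the members' values, Fcgrt among them, was not tested.

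Genes of the surrounding pathway were counted from 6 lists, some of which hold members. Tyrobp, Trem2, Clec7a, Siglech, Cd68 and Axl also stand in the microglia lists above, so these counts are not separate results. For mAdu under mVEGF-C no gene of the 6 lists passed over all genes. Their counts are to be read against all 14881 genes, of which 49.5% were negative, 6.69% were lower and 6.04% higher at an unadjusted p under 0.05. Among the ITAM adaptors and their partner receptors, which feed into Syk as Fcer1g does, 8 of 16 were measured, all 8 had negative changes with a median of -0.43, and 7 had an unadjusted p under 0.05. The 2 with the smallest p were Tyrobp, the adaptor DAP12, at -0.47 (SE 0.128, adjusted p = 0.136), and its partner receptor Trem2 at -0.43 (SE 0.123, adjusted p = 0.157). The relatives of the Fc receptors had 4 of 15 measured, 3 of them members, and the fourth, the microglial Fcrls, was at -0.07 (SE 0.071, adjusted p = 0.739 in edgeR's quasi-likelihood test). Fcrls, known as a gene of homeostatic microglia, had a median of 24.0 CPM over the libraries.

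Of the kinases and adaptors downstream of ITAM receptors 25 of 26 were measured, 20 were negative with a median of -0.13, and 6 had an unadjusted p under 0.05, all lower. Prkcd, a protein kinase C isoform, was at -0.74 (SE 0.206, adjusted p = 0.152). Of the list of ITIM receptors, phosphatases and related genes 17 of 26 were measured. Of these 9 were negative with a median of -0.05, a share near that of all genes, and 4 were lower and 0 higher at an unadjusted p under 0.05. The list was not restricted by cell type, and its median levels ran from 0.748 CPM in Cd22 to 395 CPM in Sirpa. Whether its microglial genes moved apart from the rest was not tested. Ptprc, the leukocyte phosphatase CD45, was at -0.75 (SE 0.153, adjusted p = 0.0599), ahead of the member Fcgr2b.

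For phagocytic uptake and the oxidase all 21 genes were measured, 18 were negative with a median of -0.15, and 9 were lower and 1 higher at an unadjusted p under 0.05. The subunits of the phagocyte oxidase Cyba at -0.45 (SE 0.124, adjusted p = 0.138) and Cybb at -1.46 (SE 0.408, adjusted p = 0.151) had the smallest p, and Cybb was at 0.724 to 2.86 CPM over the libraries. For intracellular antibody handling all 14 genes were measured, 6 were negative with a median of 0.01, also near the share of all genes, and 1 was lower and 2 were higher at an unadjusted p under 0.05. B2m, the light chain that pairs with the Fcgrt product and with class I molecules, was at -0.56 (SE 0.113, adjusted p = 0.0599). Ube2v2, a ubiquitin-conjugating enzyme variant, was at 0.13 (SE 0.039, adjusted p = 0.193). The heavy chain Fcgrt itself was at -0.15. Under eGFP the medians of the 6 lists lay between -0.04 and 0.01, and 1 gene, the phosphatase Ptprj at -0.13 (SE 0.042, adjusted p = 0.347), had an unadjusted p under 0.05.

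Ratios of reads between members describe the balance of the pathway within a library and do not depend on scaling. Fcgr3 reads per Fcgr2b read, activating against inhibitory receptor, were 5.40 ± 0.474 with eGFP+mIgG, 5.45 ± 0.411 with eGFP+mAdu, 4.97 ± 0.162 with mVEGF-C+mIgG and 6.46 ± 0.165 with mVEGF-C+mAdu (SD, n = 3). Mice 10, 11 and 12 had 6.37, 6.65 and 6.36, and the other 9 mice lay between 4.82 and 5.95. The doubly treated mice thus had the highest ratio, but counting error alone gave mouse 10 an exact 95% interval from 4.73 to 8.74, which spans the ratio of every other library. Fcgr1 reads per Fcgr2b read were 1.44 ± 0.186, 1.26 ± 0.145, 1.43 ± 0.280 and 1.35 ± 0.271 in the same order of groups, with all groups overlapping. Syk reads per 100 Inpp5d reads were 27.7 ± 1.73, 28.9 ± 0.577, 30.7 ± 1.97 and 39.4 ± 4.95. The kinase stood highest against the phosphatase in mice 10, 11 and 12, at 0.450, 0.356 and 0.376 Syk reads per Inpp5d read, beside 0.266 to 0.330 in mice 1 to 9. These ratios were chosen with the levels known and are descriptions without a test, and intervals cover counting error only.

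**Figure D5:**
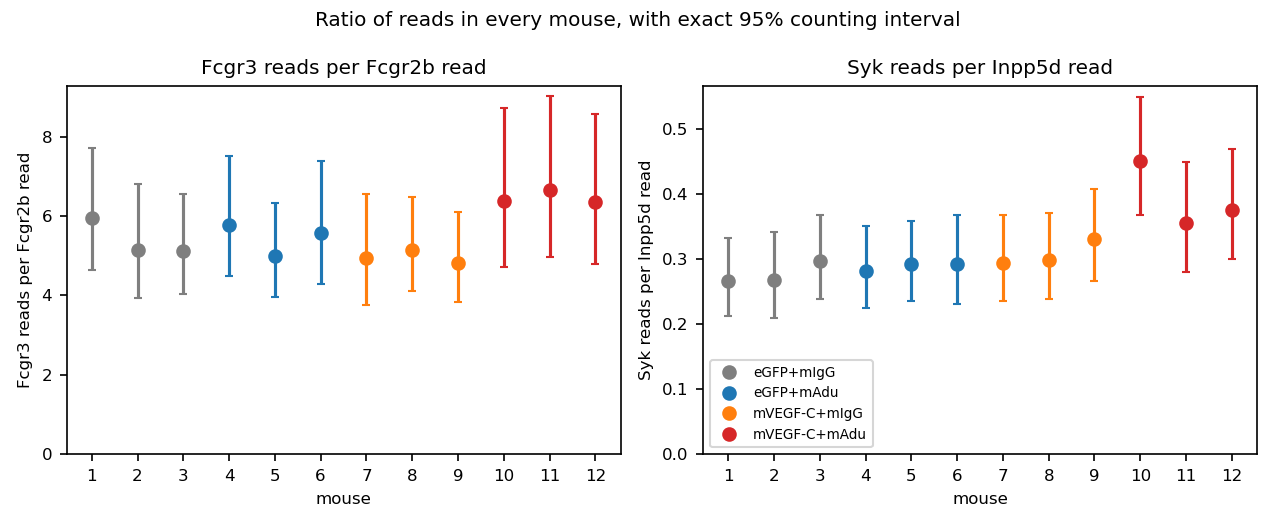
Reads of Fcgr3 per read of Fcgr2b (left) and of Syk per read of Inpp5d (right) in each of the 12 mice, coloured by group, with exact 95% counting intervals as bars and axes from 0. Mice 10 to 12 have the highest values in both panels. On the left their intervals overlap with those of all other mice. On the right those of mice 11 and 12 do so too. The interval of mouse 10 there lies above those of mice 1, 2, 4 and 5.

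Across the 12 libraries the genes outside the set whose level was most like the receptor level were Ctsd (Pearson r = 0.954), Ctsz (0.954), Gbp3 (0.952), Itgax (0.951), H2-K1 (0.950), C1qa (0.946), H2-D1 (0.944) and Oasl2 (0.944). They comprise lysosomal proteases, class I molecules, interferon-induced genes, a complement subunit and an integrin of activated microglia. Of the members outside the receptor level, Inpp5d had r = 0.847 and Plcg2 r = 0.591, while Trim21 at 0.085, Fcgrt at 0.017 and Syk at -0.165 did not follow it. The 12 points include the group differences and share scaling and depth, so these coefficients are descriptions, and H2-K1 and H2-D1 are near-identical class I genes whose reads may be split.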

How the data were processed

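The deposited table gives raw read counts per Ensembl gene for 12 libraries. Per the submitters' processing notes, which name no roles, the authors' tools include STAR, Subread, featureCounts, Trim Galore, FastQC and edgeR, with build mm10. Versions, annotation, strand setting and handling of reads with several matches: not given in the sources used here. RNA was amplified linearly before library preparation, per the labels' protocols, so reads are not independent molecules.

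Of 14881 identifiers 14797 matched GENCODE M21 (mm10), which gave symbols and positions. Counts were fitted with edgeR 4.0.16 (R 4.3.3) in 1 model of 12 libraries with a mean for each group and TMM scaling. Contrasts were tested two-sided with the quasi-likelihood test and Benjamini-Hochberg adjustment over all genes at 0.05. filterByExpr removed 0 genes. The lowest gene total was 147 reads, and the common biological coefficient of variation was 5.16%. SE is the log2 change divided by the root of F. Log2 CPM used a prior count of 2. Library totals ran from 23213612 to 29295266 reads, and members had 51 to 483 reads per library. The precision of each value depends on these numbers and on the spread between mice. The fit was tested on simulated data.

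Alternatives were DESeq2 size factors, no filter, the DESeq2 1.42.0 Wald test, the 2 compared groups alone, each library left out, the 4 intermediate libraries left out, and the homeostatic microglia level as a covariate. The fit without a filter repeats the main fit, because the filter removed no gene, so its agreement is no check. Leaving out libraries in the read ratios was added after seeing the data. Members and lists were chosen with earlier results of these data known. All members are named, in full where the unadjusted p was under 0.05 and otherwise the 2 with the smallest p. Of each pathway list the 2 genes with the smallest p over both antibody contrasts are named, and the 8 genes outside the set most correlated with the receptor level. A further gene under this rule is not reported here. Fcrls, Ptprj, Vwf, Slco1c1, Ttr and Stab1 were named after their values were seen. Protein motifs were not searched.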

Additional observations from a re-analysis of the deposited data

How the results depend on the processing

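The recomputed values comprise the log2 changes of members and the read ratios with 1 mouse left out. Of these values together, 390 stayed the same, while 7 log2 changes reversed and 3 newly passed. A log2 change stayed the same if it kept its direction and side of the threshold, and a read ratio if it moved by less than its SD. In groups of 3 mice, leaving 1 out cannot move a mean by its SD, so the read ratios could only stay the same. The 390 also include the fit without a filter, which repeats the main fit. This number is thus no measure of stability. All 7 reversals came with the homeostatic microglia level as covariate: for mAdu under mVEGF-C Fcer1g 0.08 and Fcgr3 0.06, for mVEGF-C under mAdu Fcer1g 0.13 and Fcgr2b 0.05, for the interaction Fcgr2b 0.08 and Inpp5d 0.04, and for mVEGF-C under mIgG Fcgrt 0.01. The count of members passing moved from 0 to 1 for mAdu under mVEGF-C without mouse 7 (range 0 to 1 over left-out mice), and for the combined treatment with the covariate (Fcgrt -0.51, adjusted p = 0.0109) or with the 2 groups alone (Fcgrt).

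The number of all genes passing moved more. With the DESeq2 Wald test it was 47 for mAdu under eGFP (5 in the edgeR fit), 126 for mAdu under mVEGF-C (31), 237 for mAdu averaged (85), 8 for the interaction (2), 20 for mVEGF-C under mIgG (6) and 119 for mVEGF-C under mAdu (7). With the covariate these were 21, 55, 194, 14 and, for mVEGF-C under mAdu, 632, and 1194 for the combined treatment (324). With the 2 groups alone they were 6 for mAdu under mVEGF-C, 62 for mVEGF-C under mAdu, 2 for mVEGF-C under mIgG and 610 combined. Without the 4 intermediate libraries they were 2 for mAdu under eGFP, 0 under mVEGF-C, 1 averaged, 0 for the interaction (248 at an unadjusted p under 0.05), 2 for mVEGF-C under mIgG, 0 under mAdu (758 unadjusted) and 2 combined, with fewer mice. With 1 mouse left out they ran from 4 to 35 for mAdu under eGFP (high without mouse 2), 2 to 138 under mVEGF-C (low without mouse 9 or 12, high without 7), 9 to 172 averaged (without 12, without 7), 0 to 36 for the interaction (high without 7), 1 to 52 for mVEGF-C under mIgG (without 9, without 7), 0 to 110 under mAdu (high without 5) and 12 to 397 combined (without 12, without 2). The cause was not tested. No paired analysis was possible because the groups share no replicate number. At 51 to 94 reads per library in Fcgr2b and 59 to 129 in Fcgr1, small changes are not detectable.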
